A study of Mus musculus with 9 samples.

Results

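The heat shock proteins and their co-chaperones were followed in mouse bile duct organoids. All genes whose symbol begins as Hspa to Hsph, Hsp90, Dnaja, Dnajb or Dnajc with a number, or is Bag1 to Bag6, were taken, pseudogenes left out, which gave 77 of the 32137 genes in the deposited files. The rule used names only and no measured value. RNA had been sequenced in 9 libraries of sorted cells from organoids of a single male mouse of mixed background, heterozygous for Axin2CreERT2 (a tamoxifen-activated Cre recombinase under the control of Axin2, a Wnt target) and for a Cre-dependent tdTomato reporter at R26. The 3 groups, of 3 libraries each, were tdTomato-negative cells of organoids without R-spondin 1 (untreated), tdTomato-negative cells of organoids given R-spondin 1, a secreted enhancer of Wnt signalling, at 100 ng/ml (Rspo1-negative), and tdTomato-positive cells of the same treatment (Rspo1-positive). All 3 groups, the untreated one included, had been differentiated for 11 days. A separate expansion phase, lasting at least 2 and at most 4 days, is recorded for every library. All groups had received 3 uM dexamethasone, a synthetic glucocorticoid, and 500 nM 4-hydroxytamoxifen for the last 24 h. For R-spondin 1 a dose but no separate duration is recorded. The organoids were taken apart with TrypLE for 7 min at 37 °C. Each group was sampled at passages 5, 6 and 10 of the organoid line, 1 library per passage, so that replicates are repeated cultures of 1 animal's line and p-values between groups measure the spread between these cultures only. No group held tdTomato-positive cells without R-spondin 1, so that treatment and sorting gate change together between untreated and Rspo1-positive cells.

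Heat shock proteins bind unfolded or partly folded proteins and help them to fold, to refold after stress or to be degraded. Hsp70 proteins (Hspa genes) work in a cycle of ATP binding and hydrolysis, in which J-domain proteins (Dnaj genes) deliver clients and start hydrolysis, and Hsp110 proteins and BAG proteins release the nucleotide. Hsp90 proteins mature kinases and steroid hormone receptors, the glucocorticoid receptor among them, small heat shock proteins (Hspb genes) hold clients without ATP, and Hspd1 with its lid Hspe1 folds proteins inside mitochondria. Cytosolic members rise on heat and proteotoxic stress through heat shock factor 1, whereas the members of the endoplasmic reticulum, such as Hspa5 (BiP) and Hsp90b1 (Grp94), answer to the unfolded protein response. Of the 77 genes taken by name, Hspg2 (perlecan, a proteoglycan of basement membranes) is not a chaperone, and Hspb11 is a component of ciliary transport.

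The promoters of members described below are shown because they carry the letters of these 2 control systems. RefSeq promoter windows (GRCm38.p6, 250 bases before to 50 bases after a start) were matched by symbol for 62 of the 77 members, in 80 windows, and were searched on both strands. GAANNTTCNNGAA, 3 alternating units of the heat shock element, was present in 0.603% of all 32851 windows and in those of 4 members, Dnajb6, Hspd1, Hspe1 and Hsph1. GAANNTTC, the 2-unit form, which the 3-unit form contains, was present in 7.86% of all windows and in 15 of the 80 member windows (18.8%), Hspa1a, Hspa1b, Hspb1, Hspb8 and Bag3 included. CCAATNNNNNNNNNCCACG, the endoplasmic reticulum stress element, was present in 0.119% of all windows and in those of 3 members, Hspa5, Hsp90b1 and Dnajc3. In the stretches below, which lie before the RefSeq start and outside annotated untranslated regions, read 5′ to 3′ along the gene, capitals mark a heat shock element in Hspa1a (chr17:34972157-34972406, minus strand), Hspa1b (chr17:34959239-34959488, minus strand) and Hspe1 (chr1:55088025-55088131, plus strand), and an endoplasmic reticulum stress element in Hsp90b1 (chr10:86705510-86705694, minus strand) and Dnajc3 (chr14:118937682-118937931, plus strand).
Hspa1a: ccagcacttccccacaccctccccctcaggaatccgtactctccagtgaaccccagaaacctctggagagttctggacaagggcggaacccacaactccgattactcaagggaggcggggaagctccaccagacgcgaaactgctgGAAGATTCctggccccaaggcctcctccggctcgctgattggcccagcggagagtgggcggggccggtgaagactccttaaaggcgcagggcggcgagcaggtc
Hspa1b: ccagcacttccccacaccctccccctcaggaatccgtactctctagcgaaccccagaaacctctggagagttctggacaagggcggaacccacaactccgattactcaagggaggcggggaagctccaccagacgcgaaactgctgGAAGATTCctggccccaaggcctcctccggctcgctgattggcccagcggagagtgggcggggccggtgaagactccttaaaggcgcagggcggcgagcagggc
Hspe1: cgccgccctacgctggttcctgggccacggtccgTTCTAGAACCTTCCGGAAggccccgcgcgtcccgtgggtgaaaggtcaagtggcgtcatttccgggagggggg
Hsp90b1: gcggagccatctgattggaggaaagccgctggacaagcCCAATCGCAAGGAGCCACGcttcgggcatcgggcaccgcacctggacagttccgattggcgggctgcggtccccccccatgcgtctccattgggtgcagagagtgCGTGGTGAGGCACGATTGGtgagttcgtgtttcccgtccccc
Dnajc3: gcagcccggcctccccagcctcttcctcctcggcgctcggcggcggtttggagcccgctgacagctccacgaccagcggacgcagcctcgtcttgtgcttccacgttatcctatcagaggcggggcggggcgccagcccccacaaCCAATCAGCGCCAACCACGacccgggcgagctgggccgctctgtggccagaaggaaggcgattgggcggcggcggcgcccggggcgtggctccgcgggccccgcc
Hspa1a and Hspa1b carry the same 8 letters, GAAGATTC, 104 bases before the start. In Hspe1 a pair of overlapping 3-unit matches begins 89 and 84 bases before the start, and the same letters lie before Hspd1, which is transcribed from the opposite strand. Hsph1 holds TTCTGGAAAGTTC after its start, at chr5:149636288-149636300 on the minus strand, and Hspa5 holds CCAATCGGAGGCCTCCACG 65 bases before its RefSeq start, at chr2:34772025-34772043 on the plus strand. A match describes letters, not bound factors.

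Total counts were 23423979 to 37351448 per library, and 71 of the 77 members passed the filter on low counts and were tested among 17011 genes. Genes resembling ribosomal RNA took 20.9% of counts in Rspo1-positive and 16.9% in Rspo1-negative cells at passage 6, against 0.499% to 10.1% in the other 7 libraries. The bile duct markers Krt19 (1370 to 3460 CPM, the count scaled to TMM-corrected library size) and Epcam (520 to 699 CPM) were present in all 9 libraries. Krt19 was lowest in Rspo1-positive cells, at 1620, 1470 and 1370 CPM, and the duct marker Sox9 ran from 33.5 to 184 CPM. In contrast, Ptprc, Pecam1 and Col1a1 did not exceed 0.133, 0.185 and 0.691 CPM. Of the markers of other cell types, the hepatocyte gene Ttr stood at 149 to 534 CPM and Alb at 3.91 to 15.3 CPM, and the macrophage gene Cd68 at 5.34 to 23.0 CPM. The libraries of Rspo1-negative cells stood apart in base composition: over 14117 genes the log2 fold change had a rank correlation with transcript GC content of -0.537 between Rspo1-positive and Rspo1-negative cells and of 0.531 for Rspo1-negative against untreated cells, against -0.00996 for Rspo1-positive against untreated cells. Among the 71 members the same values were -0.608, 0.50 and -0.163. Comparisons with Rspo1-negative cells are therefore given together with a fit that carries a GC and length offset per gene. Of 9 listed duct markers 0 were higher and 4 lower in Rspo1-positive against Rspo1-negative cells (44.4%, against 38.9% of all genes). With the offset 0 were higher and 1 lower. Against untreated cells, 2 were higher and 1 lower in Rspo1-positive cells (33.3%, against 13.2%). In Rspo1-negative cells 3 were higher and 0 lower (33.3%, against 35.5%), and with the offset 2 and 2. The 3 comparisons of groups share libraries, so that their results are not independent of each other.

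The cytosolic Hsp90ab1 had the highest level per transcript length of all members, 832 ± 125 FPKM (SD, n = 3) in untreated, 978 ± 28.3 in Rspo1-negative and 891 ± 60.8 in Rspo1-positive cells. In untreated cells it was followed by the constitutive Hsp70 Hspa8 at 267.5 ± 79.5 FPKM, the nucleotide exchange factor Bag1 at 216 to 308, Hsp90b1 at 224 ± 57.3 and Hspa5 at 195 ± 46.1. The ranges of these 4 over the untreated libraries overlapped, while Hsp90ab1 lay above them in every library. The mitochondrial Hsp70 Hspa9 (126 ± 13.7 FPKM), the small heat shock protein Hspb1 (88.3 ± 23.8), the stress-inducible Hsp90aa1 (84.4 ± 32.8), Hspd1 (80.1 ± 29.4) and the endoplasmic reticulum reductase Dnajc10 (65.8 ± 10.7) came next. Stress-inducible Hspa1b stood at 61.6 ± 20.7 FPKM and its near copy Hspa1a had a mean of 21.0. All members together took 0.830% to 1.13% of the counts of a library.

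Hspa1a and Hspa1b, the inducible cytosolic Hsp70 pair, were lower in Rspo1-positive cells compared with untreated ones, whereas Dnajc10, Dnajc9 and Hspb8 were higher. Hspa1b (ENSMUSG00000090877, chromosome 17, 34956436 to 34959238, minus strand, GRCm38) stood at 243, 139 and 145 CPM in untreated cells at passages 5, 6 and 10, at 114.5, 106 and 103 CPM in Rspo1-negative cells and at 111, 63.1 and 87.6 CPM in Rspo1-positive cells. The Rspo1-positive libraries all lay below the untreated ones. The log2 fold change against untreated cells was -0.999 (SE 0.16, edgeR adjusted p = 0.00151). Hspa1a (ENSMUSG00000091971, chromosome 17, 34969190 to 34972156, minus strand) stood at 97.6, 50.9 and 41.6 CPM in untreated, 55.2, 53.0 and 38.5 CPM in Rspo1-negative and 44.7, 22.1 and 23.7 CPM in Rspo1-positive cells. It was lower in Rspo1-positive cells within each passage, although the groups overlapped because Rspo1-positive cells at passage 5 lay above untreated cells at passage 10. Its log2 fold change was -1.04 (SE 0.17, edgeR adjusted p = 0.00224), and without passage as a block it missed the threshold (adjusted p = 0.117). Of the 75-base windows in the transcripts of Hspa1a and Hspa1b, 61.7% and 55.8% also occur in another gene, chiefly in each other, and 19.0% of the exon bases of Hspa1a overlap Gm20481 on the opposite strand, so the division of reads between them is uncertain. In these bulk libraries fewer cells with a transcript and less transcript per cell cannot be told apart.

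**Figure D1:**
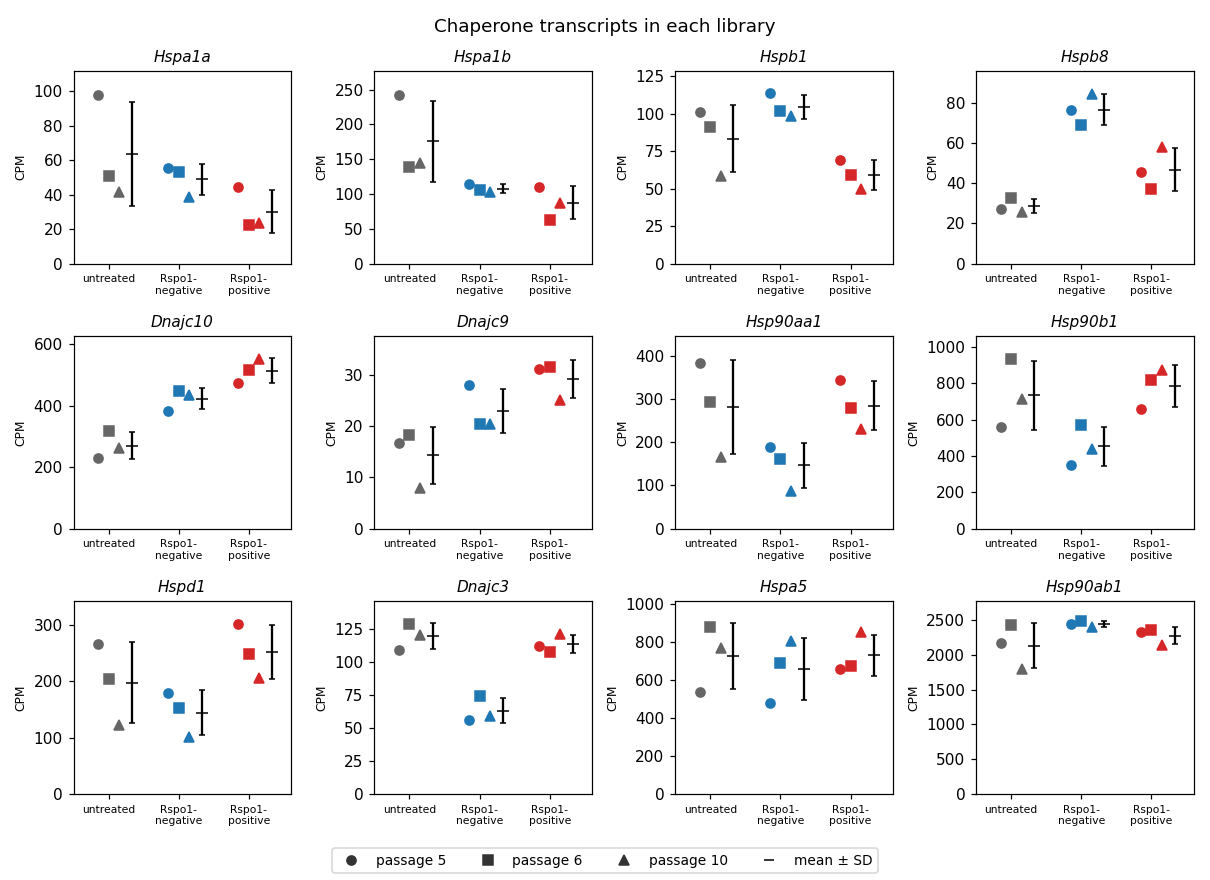
Levels of 12 members in each library, in CPM on linear axes from 0. Symbols mark passage 5, 6 and 10, colours the groups, and bars the mean ± SD of 3 libraries; Hspb8 is lowest in all 3 untreated libraries, and Dnajc10 rises from 231 to 319 CPM in untreated to 475 to 553 CPM in Rspo1-positive cells.

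In all, 7 of the 71 tested members (9.86%) differed between Rspo1-positive and untreated cells, 3 higher and 4 lower, against 13.2% of all genes tested, of which 6.44% were higher and 6.77% lower. The split was 4 higher and 3 lower with upper-quartile scaling and also with the GC and length offset, with which 16.0% of all genes passed, 7.67% higher and 8.36% lower. Without passage as a block 3 members passed. Dnajc10 (ERdj5, ENSMUSG00000027006, chromosome 2, 80315466 to 80354043, plus strand), which reduces disulfide bonds of misfolded proteins in the endoplasmic reticulum, stood at 231, 319 and 261 CPM in untreated, 383, 449 and 434 CPM in Rspo1-negative and 475, 515 and 553 CPM in Rspo1-positive cells. No Rspo1 library overlapped an untreated one, and both Rspo1 groups were higher than untreated cells, by 0.94 (SE 0.13, edgeR adjusted p = 0.000711) in Rspo1-positive and by 0.65 (SE 0.13, adjusted p = 0.00368; 1.01 with the offset) in Rspo1-negative cells on the log2 scale. Between the gates the estimate was 0.29 (SE 0.13, edgeR adjusted p = 0.105), which passed in a fit of the 6 libraries compared (0.0459) and turned to -0.11 with the offset. Dnajc9, a histone co-chaperone tied to DNA replication, stood at 16.7, 18.3 and 7.97 CPM in untreated, 28.0, 20.5 and 20.4 CPM in Rspo1-negative and 31.2, 31.5 and 25.02 CPM in Rspo1-positive cells. The untreated libraries were the lowest at each passage. It was higher in Rspo1-positive cells by 1.08 (SE 0.20, edgeR adjusted p = 0.0037; 0.0615 without the block). A list of 14 proliferation genes moved with it: all 14 were higher in the same comparison, with sums of 181 to 272 CPM in untreated, 411 to 501 in Rspo1-negative and 862 to 1110 in Rspo1-positive cells, and their part in the level of Dnajc9 was not tested.

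Hspb8, the small heat shock protein that works with Bag3 in chaperone-assisted autophagy, stood at 27.3, 32.7 and 25.8 CPM in untreated, 76.2, 69.0 and 84.1 CPM in Rspo1-negative and 45.6, 36.8 and 57.8 CPM in Rspo1-positive cells. The 3 groups did not overlap, and the highest level was that of Rspo1-negative cells. The log2 fold change was 1.41 (SE 0.16, edgeR adjusted p = 0.000236; 1.15 with the offset) for Rspo1-negative against untreated cells and 0.69 (SE 0.16, adjusted p = 0.0162) for Rspo1-positive against untreated cells. The latter lost the call without untreated or Rspo1-positive replicates 1 or 3 (adjusted p up to 0.106). Its autophagy partner Bag3 was 127, 124 and 141 CPM in untreated, 106, 101 and 138 CPM in Rspo1-negative and 106, 95.7 and 125 CPM in Rspo1-positive cells and passed in no comparison without the offset. Hspb1 (Hsp25), another small heat shock protein, was lowest in Rspo1-positive cells, at 69.4, 59.0 and 49.5 CPM against 101, 91.0 and 58.3 CPM in untreated and 114, 102 and 98.7 CPM in Rspo1-negative cells. Against untreated cells it was lower by a log2 fold change of -0.48 (SE 0.13, edgeR adjusted p = 0.0376), a call kept only in the fits without untreated replicate 3 or Rspo1-negative replicate 2 or 3 among the 9 that left out a library (largest adjusted p 0.189), and lost with the offset (0.0529). Dnaja4, a J-domain protein of the cytosol, changed by -0.52 (SE 0.15, edgeR adjusted p = 0.0414), a call kept only without untreated or Rspo1-negative replicate 2 among those 9 fits (largest adjusted p 0.215); 44.0% of its exon bases overlap Wdr61 on the opposite strand. The cytosolic Hsp70s and Hsp90s that are abundant without stress did not pass: the estimates were -0.06 (SE 0.16) for Hspa8 and 0.10 (SE 0.15) for Hsp90ab1. A list of 26 genes known to respond to tissue dissociation went the other way from Hspa1a and Hspa1b, with 12 of its genes higher and 3 lower in Rspo1-positive cells (57.7%, against 13.2% of all genes), Fos by 1.72 among them, and its part in these results was not tested.

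Rspo1-positive and Rspo1-negative cells, which shared the treatment and differed in the reporter, differed in 26 of the 71 members (36.6%), 16 higher and 10 lower in Rspo1-positive cells, against 38.9% of all genes (21.5% higher, 17.4% lower). With the offset 20 members passed, 10 in each direction, against 24.1% of all genes (10.8% higher, 13.3% lower), and 11 members passed in the same direction in both fits. The members called higher had a median transcript GC content of 42.5% and those called lower one of 52.8%. Hsp90aa1, the inducible cytosolic Hsp90 (ENSMUSG00000021270, chromosome 12, 110690605 to 110702728, minus strand), stood at 343.5, 279 and 230.5 CPM in Rspo1-positive, 190, 162 and 88.2 CPM in Rspo1-negative and 383.5, 294 and 167 CPM in untreated cells. All Rspo1-positive libraries lay above all Rspo1-negative ones, and the untreated ones spanned both. The difference was 1.01 (SE 0.15, edgeR adjusted p = 0.000744), or by 0.64 (adjusted p = 0.00703) with the offset, and missed the threshold without the block (0.0566). Of its 75-base windows 53.1% also occur in other genes, among them Gm12346. The same share was 47.3% for Hspb1, 41.3% for Hspa8 and 33.7% for Hspd1, so the assignment of reads to these genes is uncertain too. Hspd1 (ENSMUSG00000025980, chromosome 1, 55077835 to 55088243, minus strand) stood at 301, 249 and 205 CPM in Rspo1-positive and 179, 152 and 100.1 CPM in Rspo1-negative cells. It was higher in Rspo1-positive cells by 0.84 (SE 0.13, edgeR adjusted p = 0.00109; 0.76 with the offset), while its lid Hspe1 had an estimate of -0.11 (SE 0.13; -0.18 with the offset). The difference for Hspd1 also missed the threshold without the block (edgeR adjusted p = 0.0625).

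Of the J-domain proteins, Dnajc21, which acts in the maturation of large ribosomal subunits, and Dnajc2, which binds ribosomes, were higher in the tdTomato-positive gate. Dnajc21 stood at 28.7, 22.1 and 23.8 CPM against 14.5, 12.2 and 10.8 CPM, a log2 fold change of 0.99 (SE 0.13, edgeR adjusted p = 0.000442; 0.58 with the offset). Dnajc2 stood at 35.0, 35.0 and 37.1 CPM against 19.4, 19.8 and 16.9 CPM, a log2 fold change of 0.94 (SE 0.13, edgeR adjusted p = 0.000451; 0.38 with the offset). Dnajc13, a J-domain protein of endosomes, changed by 1.13 (SE 0.15, edgeR adjusted p = 0.000489; 0.42 with the offset). These 3 passed in all 16 alternatives run, and the estimates of all 3 were smaller by more than 1.5 times with the offset. Hspb1 was lower in Rspo1-positive cells by -0.84 (SE 0.13, edgeR adjusted p = 0.00106), or by -0.39 (0.0491) with the offset. Hspa1a (-0.76), Hspb8 (-0.72), Dnajc4 (-0.71) and Bag1 (-0.55) were lower and Dnajb4 (0.87) and Hspa13 (0.81) higher without the offset only, with edgeR adjusted p-values of 0.0673 to 0.635 with it. The J-domain protein Dnaja4 (-0.54, SE 0.15, edgeR adjusted p = 0.0153; -0.47 with the offset) passed in both fits. Bag1 did not pass when replicate 1 or 2 of the Rspo1-positive or 1 or 3 of the Rspo1-negative cells was left out (edgeR adjusted p up to 0.111), nor did Dnaja4 without Rspo1-positive replicate 1 or 2 (up to 0.0678).

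Hspa4l, a nucleotide exchange factor of the Hsp110 family, had the lowest transcript GC content of the tested members (39.5%). It stood at 93.9, 95.7 and 83.7 CPM in untreated, 39.0, 39.5 and 32.6 CPM in Rspo1-negative and 86.4, 71.4 and 73.0 CPM in Rspo1-positive cells. The Rspo1-negative libraries lay far below all others, with a log2 fold change of -1.30 (SE 0.11, edgeR adjusted p = 0.00011) against untreated cells, and of -0.18 (adjusted p = 0.263) with the offset. For Rspo1-positive against Rspo1-negative cells its 1.06 (SE 0.11, edgeR adjusted p = 0.000236) became -0.06 (0.732). Dnaja1, the main J-domain partner of cytosolic Hsp70, behaved alike, with 0.72 (SE 0.12, edgeR adjusted p = 0.00146) becoming -0.10 (0.536). The direction of these 2 members between the gates thus turned with the correction.

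**Figure D2:**
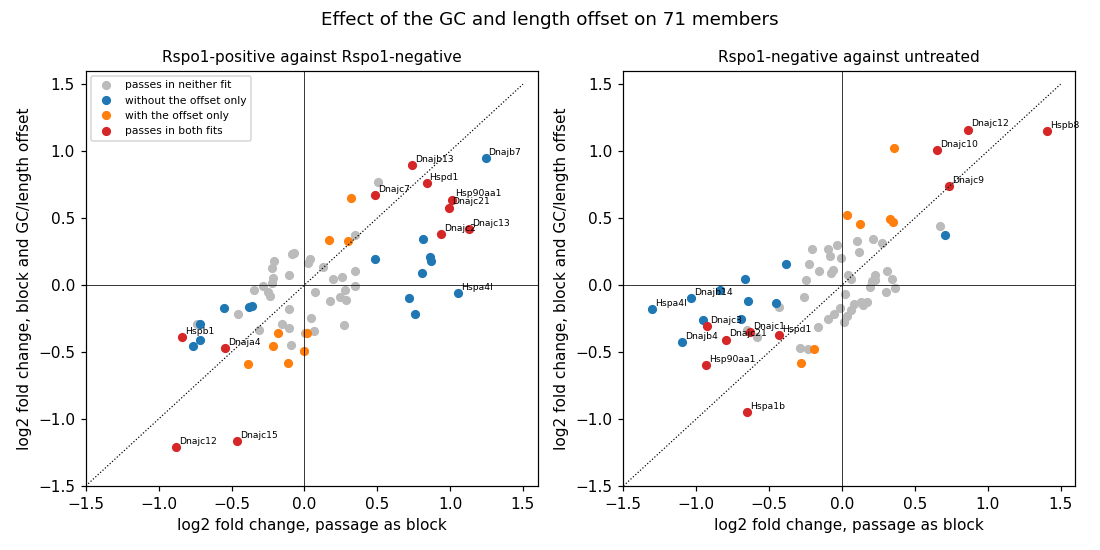
Log2 fold changes of 71 members with passage as a block (horizontal axis) and with an added GC and length offset (vertical axis), for Rspo1-positive against Rspo1-negative cells (left) and Rspo1-negative against untreated cells (right). Points on the dotted line do not move; Hspa4l falls from 1.06 to -0.06 on the left, while Hspd1 stays near the line.

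Rspo1-negative against untreated cells gave 21 of 71 members (29.6%), 5 higher and 16 lower, against 35.5% of all genes (15.5% higher, 20.0% lower). The split depended on scaling: 11 higher and 15 lower with upper-quartile scaling, 8 and 15 with DESeq2, and 9 and 8 with the offset, where 22.5% of all genes passed (12.5% higher, 9.95% lower). With both Rspo1 libraries of passage 6 left out it was 13 and 18. Hspb8 and Dnajc10 (above) and Dnajc9 (0.74, SE 0.20, edgeR adjusted p = 0.0145; 0.74 with the offset) were among those higher; Dnajc9 lost the call without untreated replicate 3 or Rspo1-negative replicate 1 or 3 (adjusted p up to 0.0863). Hspa1b was lower by -0.65 (SE 0.16, edgeR adjusted p = 0.0087) and by -0.95 (0.00231) with the offset, and lost the call without untreated or Rspo1-negative replicate 1 (adjusted p 0.0609 and 0.0688). Hspa1a, with an estimate of -0.28 (SE 0.17, edgeR adjusted p = 0.228), passed with the offset at -0.58 (0.0335) and without Rspo1-negative replicate 2 at -0.48 (0.0335), and in no other fit planned. Hsp90aa1 was lower by -0.93 (SE 0.15, edgeR adjusted p = 0.00105; -0.60 with the offset). Hspd1 (-0.43, SE 0.13, edgeR adjusted p = 0.0275; -0.38 with the offset) lost its call without untreated replicate 1 or Rspo1-negative replicate 1 or 3 (up to 0.164). Dnajb4 (-1.09), Dnajb14 (-1.04), Dnajc13 (-0.95), Dnaja1 (-0.84), Hspa13 (-0.67) and Hspa4 (-0.45) were lower without the offset and did not pass with it (edgeR adjusted p 0.0536 to 0.838), when the estimate of Hspa13 turned to 0.04. Hspa4 also lost its call without untreated replicate 1 or any Rspo1-negative replicate (up to 0.145).

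The 8 members listed for the endoplasmic reticulum lumen (Hspa5, Hsp90b1, Hspa13, Dnajb9, Dnajb11, Dnajc1, Dnajc3 and Dnajc10) differed between comparisons and between fits. Against untreated cells only Dnajc10 passed in Rspo1-positive cells (12.5%, against 13.2% of all genes). The median log2 fold change of the 8 was 0.0246, against -0.0017 for all genes tested. Between the gates 4 were higher (50%, against 21.5% of all genes) and 0 lower (17.4% of all genes) in Rspo1-positive cells. The median was 0.387, against 0.03 for all genes. With the offset 0 were higher and 1 lower, against 10.8% and 13.3% of all genes. The median was then 0.143, against -0.00594. In Rspo1-negative against untreated cells 1 was higher (12.5%, against 15.5% of all genes) and 4 lower (50%, against 20.0%). The median was -0.418, against -0.00862 for all genes. With the offset 1 was higher and 2 lower, against 12.5% and 9.95% of all genes. The median was then -0.0637, against 0.0205. Hspa5, whose promoter carries the stress element shown above, stood at 537, 878.5 and 765 CPM in untreated, 479, 686 and 804 CPM in Rspo1-negative and 656, 674 and 853 CPM in Rspo1-positive cells and passed in none of the 3 comparisons. Hsp90b1 stood at 557, 934 and 712 CPM in untreated, 353, 568 and 435.5 CPM in Rspo1-negative and 656, 820 and 874.5 CPM in Rspo1-positive cells. Between the gates it was higher in Rspo1-positive cells by 0.81 (SE 0.15, edgeR adjusted p = 0.00192), a call lost with the offset (0.34, adjusted p = 0.0746). Dnajc3 (p58IPK), which carries the same element, stood at 109, 129 and 120 CPM in untreated, 56.4, 74.0 and 58.7 CPM in Rspo1-negative and 112, 108 and 121 CPM in Rspo1-positive cells. Here the Rspo1-negative libraries alone were low, by -0.93 (SE 0.12, edgeR adjusted p = 0.000406) against untreated cells, or by -0.31 (0.0449) with the offset. Dnajb11 (ERdj3) stayed between 82.8 and 97.2 CPM in all 9 libraries. Of 28 further genes of the endoplasmic reticulum stress response, 3 were lower and 0 higher in Rspo1-positive cells against untreated ones, namely Derl3 (-1.38), Ero1l (-0.56) and Herpud1 (-0.52), which is 10.7% of the list against 13.2% of all genes; at an unadjusted p under 0.05 there were 5, and with the offset 1 was higher and 4 lower.

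Of 11 heat-inducible members 8 were lower at passage 10 than at passage 5 (72.7%, against 4.50% of all genes). These were Hsph1, Hsp90aa1, Hspd1, Hspe1, Hspa1a, Hspa8, Dnajb1 and Hspb1, while Hspa1b, Dnaja1 and Bag3 did not pass. The 11 were chosen with earlier results of these data known, so the count describes them and is no independent support. Each passage is 1 round of culture, so passage and culture round cannot be told apart, and the 3 libraries of a passage are not separate rounds. Of the 71 members 11 were lower and 0 higher (15.5%, edgeR adjusted p under 0.05), against 9.07% of all genes, 4.57% higher and 4.50% lower; 30 members had an unadjusted p under 0.05, and DESeq2 gave 14 lower and 2 higher. With the offset 13 were lower and 3 higher, against 12.4% of all genes (5.90% higher, 6.47% lower). Leaving out each library in turn gave 3 to 24 members, the lowest number without untreated replicate 1 or 3 and the highest without untreated replicate 2. Some markers of other cell types moved with passage too. Of 3 tested hepatocyte genes 2 were lower at passage 10, Ttr by -0.99 (edgeR adjusted p = 0.0103) among them. Alb went the other way. It stood at 9.05, 9.34 and 6.20 CPM at passage 5 in untreated, Rspo1-negative and Rspo1-positive cells, and at 14.5, 12.4 and 8.76 CPM at passage 10. The macrophage gene Cd68 was lower at passage 10 by -1.39 (edgeR adjusted p = 0.00107). The summed level of the hepatocyte list was 312 to 545 CPM at passage 5 and 164 to 268 CPM at passage 10, most of it Ttr (306 to 534 and 149 to 256 CPM). That of the immune list was 11.5 to 23.3 and 5.43 to 8.35 CPM, most of it Cd68 (11.4 to 23.0 and 5.34 to 8.20 CPM). Each sum thus follows mainly 1 gene, and the part of these markers in the results for the members was not tested. Hsph1 (Hsp110, ENSMUSG00000029657, chromosome 5, 149614287 to 149636376, minus strand), a nucleotide exchange factor and disaggregase partner, stood at 201, 202.5 and 70.6 CPM at passages 5, 6 and 10 in untreated, 152, 166 and 68.2 CPM in Rspo1-negative and 203, 181 and 83.3 CPM in Rspo1-positive cells. All 3 libraries of passage 10 lay below all 6 others, while passages 5 and 6 were alike in range. Its log2 fold change was -1.31 (SE 0.12, edgeR adjusted p = 0.000316). Hsph1 was the 1 member that also passed in a fit with passage alone, without group as a factor (edgeR adjusted p = 0.0462).

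The values of Hsp90aa1 and Hspd1, given above, were lower at each later passage in every group. Hsp90aa1 was lower at passage 10 by -0.95 (SE 0.15, edgeR adjusted p = 0.00398) and Hspd1 by -0.83 (SE 0.13, adjusted p = 0.00457). Hspd1 in untreated cells went from 266 over 203 to 122.5 CPM, and its divergent neighbour Hspe1, which shares the stretch shown above, from 35.8 over 29.7 to 20.2 CPM. Hspe1 was 49.6, 31.2 and 28.6 CPM in Rspo1-negative and 37.9, 33.8 and 27.8 CPM in Rspo1-positive cells, lower at passage 10 by -0.69 (SE 0.13, edgeR adjusted p = 0.0108). Hspa1a was lower by -0.90 (SE 0.17, edgeR adjusted p = 0.0107), and Hspa1b did not pass (-0.42, SE 0.16, adjusted p = 0.113). Hspa8 is abundant without stress but was counted in the heat-inducible list, for which that label is loose in its case. It went from 1006, 1353 and 955 CPM at passage 5 in untreated, Rspo1-negative and Rspo1-positive cells to 564.5, 859 and 703 CPM at passage 10. The log2 fold change was -0.64 (SE 0.16, edgeR adjusted p = 0.0368). Dnajb1 (Hsp40), the J-domain partner of inducible Hsp70, was lower by -0.58 (SE 0.13, adjusted p = 0.0184), Hspa4 by -0.53 (0.0346), Hspb1 by -0.49 (0.0445), the ubiquitin ligase inhibitor Bag2 by -0.54 (0.0326) and the J-domain protein Dnajc28 by -0.82 (0.0461), each by edgeR. Hsph1, Hsp90aa1 and Hspd1 kept the call in each of the 9 fits without a library. Hspa1a lost it without untreated replicate 1 or 3 or Rspo1-positive replicate 1 (adjusted p up to 0.0729), Hspe1 without untreated replicate 1 or 3 or Rspo1-negative replicate 1 (up to 0.0984), and the other 6 each without at least 5 of the libraries of passages 5 and 10 (up to 0.222).

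**Figure D3:**
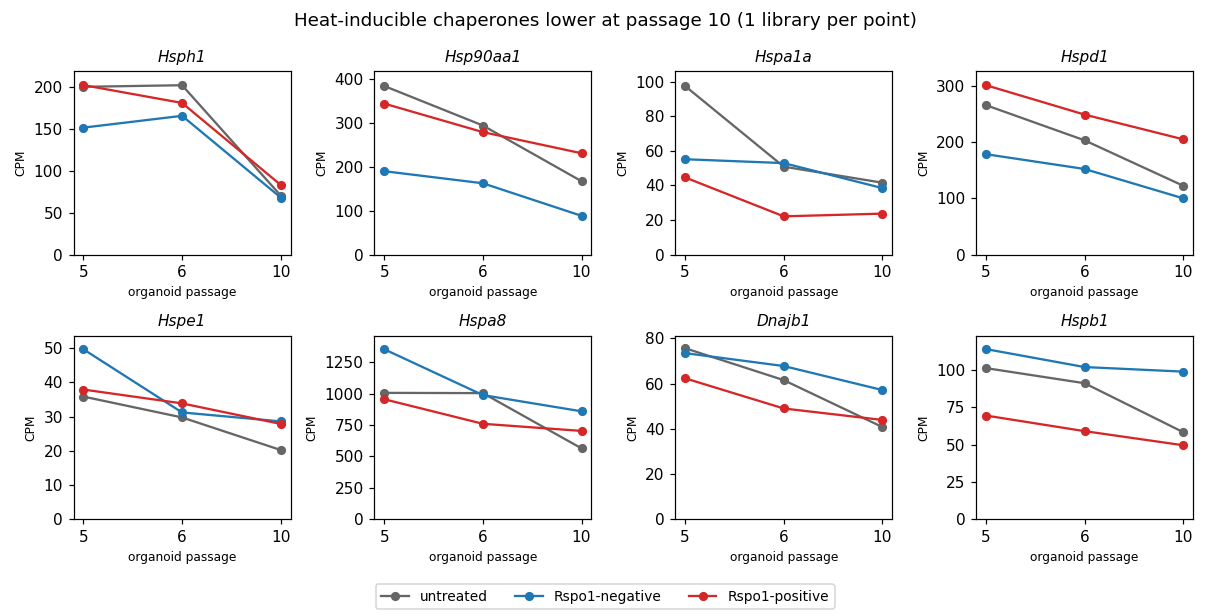
Levels in CPM at passages 5, 6 and 10 of the 8 heat-inducible members that passed as lower at passage 10. There is 1 library per point and a line per group, on linear axes from 0 with passages evenly spaced. Hspa1b, Dnaja1 and Bag3, which did not pass, are not shown. That lines end below their start therefore follows from the choice of genes. For Hsph1 the drop falls between passages 6 and 10.

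The 11 heat-inducible cytosolic and mitochondrial members, chosen from general knowledge with earlier results of these data known, had a median log2 fold change of -0.636 at passage 10, against 0.00656 for all genes tested, with 10 estimates below 0. The number lower was 1 without the block, 3 without untreated replicate 1 or 3, 4 without Rspo1-positive or Rspo1-negative replicate 1, 5 without Rspo1-positive replicate 3, and 10 without both Rspo1 libraries of passage 6, an alternative added after the data had been seen. Bag3 had the 1 estimate above 0, at 0.25 (SE 0.11, edgeR adjusted p = 0.169). The 8 listed members of the endoplasmic reticulum lumen had a median of 0.0865 at passage 10. They had 0 calls, against 9.07% of all genes (2 at an unadjusted p under 0.05, 1 higher with DESeq2). With the offset Hspa5 (0.59, edgeR adjusted p = 0.0293) and Hsp90b1 (0.46, 0.0407) were higher at passage 10. Between passages 5 and 6 no member passed with edgeR (13 at an unadjusted p under 0.05; 4 with DESeq2), against 2.49% of all genes (1.16% higher, 1.33% lower). With the offset 2 passed, 1 in each direction, against 3.55% (1.66% higher, 1.89% lower). Of 27 tested co-chaperones outside the naming rule, 5 were lower and 0 higher at passage 10 (18.5%, against 4.50% of all genes lower): the Hsp90 co-chaperones Cacybp (-0.87), Chordc1 (-0.79), the immunophilin Fkbp5 (-0.65), the Hsp90 ATPase activator Ahsa1 (-0.63) and the Hsp70-Hsp90 adaptor Stip1 (-0.55). The list of genes responding to dissociation moved with passage as well, with 11 of 26 lower and 1 higher at passage 10 (46.2%, against 9.07% of all genes), and 10 lower and 0 higher already at passage 6 (38.5%, against 2.49%); its summed level was 2410 to 3480 CPM at passage 5, 1790 to 2050 CPM at passage 6 and 1710 to 2500 CPM at passage 10, and its part in the results for the members was not tested.

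**Figure D4:**
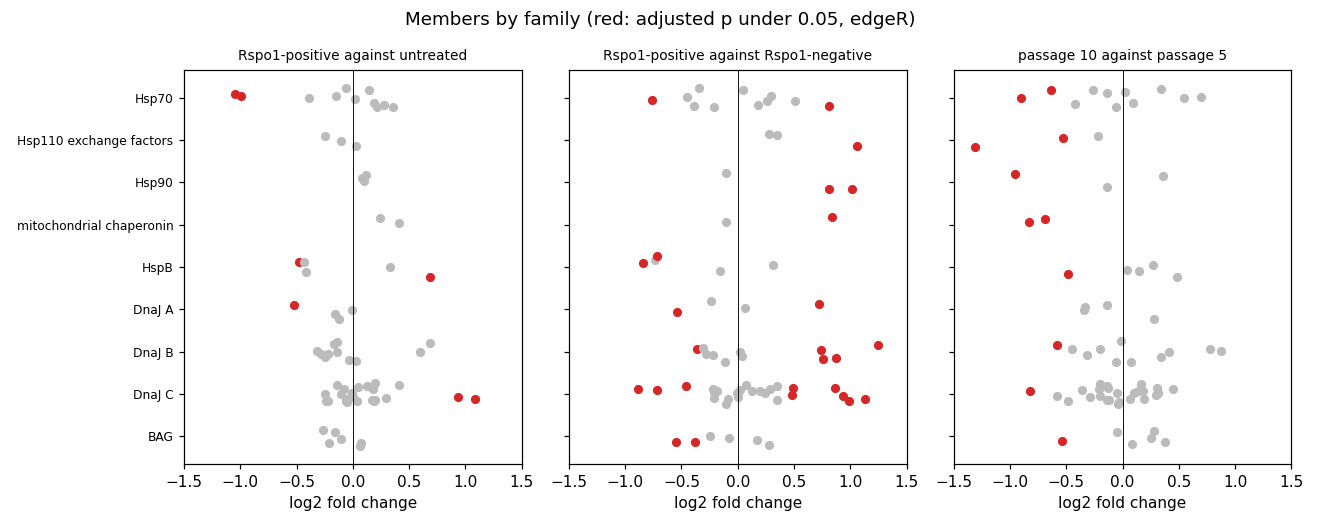
Log2 fold changes of the tested members by family (Hspg2 left out, Hspb11 shown with the Hspb genes), for Rspo1-positive against untreated cells, Rspo1-positive against Rspo1-negative cells and passage 10 against passage 5. Red points have an edgeR adjusted p under 0.05. At passage 10 all red points lie below 0, and both mitochondrial chaperonin genes are among them.

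By family the counts were small. Between Rspo1-positive and untreated cells Hspa1a and Hspa1b of the 11 Hsp70 genes were lower, and 0 of 3 Hsp110 genes, 0 of 3 Hsp90 genes and 0 of 6 BAG genes passed in that comparison (background 13.2%). Of 25 tested Dnajc genes 2 were higher, Dnajc9 and Dnajc10. Outside the naming rule Fkbp5, an Hsp90 co-chaperone that glucocorticoids induce, was also lower in Rspo1-positive cells, by -0.99 (SE 0.14, edgeR adjusted p = 0.000879), at 282.5 ± 78.5 against 560.5 ± 137 CPM (SD, n = 3), and Rpap3 was higher by 0.49; these were the 2 calls among 27 tested co-chaperones (7.41%), and all groups had received dexamethasone. Hsf1, the master regulator of the heat shock response, did not pass in any comparison, with an estimate of 0.24 (SE 0.12) for Rspo1-positive against untreated cells and 0.27 (SE 0.12) for passage 10 against passage 5. Of 8 tested heat shock factors and direct regulators 1 was higher in Rspo1-positive against untreated cells (12.5%, against 13.2% of all genes). Between the gates 2 were higher and 2 lower (50%, against 38.9%), and with the offset 1 and 2. In Rspo1-negative against untreated cells 1 was higher and 2 lower (37.5%, against 35.5%), and with the offset 1 and 1. At passage 10 none of them passed. None of the 14 tested genes of the TRiC chaperonin and prefoldin passed with edgeR between Rspo1-positive and untreated cells, and 0 had an unadjusted p under 0.05. Between the gates 2 were higher and 2 lower (28.6%, against 38.9% of all genes), and with the offset 0 and 5. In Rspo1-negative against untreated cells 3 were higher and 1 lower (28.6%, against 35.5%), and with the offset 4 and 0. At passage 10 none passed (1 lower with the offset), while 13 estimates lay below 0 and 5 had an unadjusted p under 0.05.

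The counts below, of members passing and of calls kept, were not made for all genes. Of all genes, 38.9% passed in Rspo1-positive against Rspo1-negative cells and 35.5% in Rspo1-negative against untreated cells. In all, 35 of the 71 tested members passed in at least 1 of the 5 comparisons and 36 in none. Among the latter were Hsp90ab1, Hspa5, Hspa9 (estimates of 0.19, SE 0.13, against untreated and 0.26, SE 0.13, or 0.06 with the offset, against Rspo1-negative cells for Rspo1-positive ones), Hspa2, Hspa14, Bag6, Dnajb9 (ERdj4) and Hspg2, although Dnajb9, Hspa14, Hspa5 and Bag3 each passed in 1 or 2 comparisons with the offset. Of the 65 calls 12, in 10 members, were kept in all alternatives run: those of Dnajc10 in both Rspo1 groups against untreated cells, Hspa1b in Rspo1-positive and Hspb8, Dnajc1, Dnajc21 and Dnajc3 in Rspo1-negative cells against untreated cells, Dnajc13, Dnajc2, Dnajc21 and Hspb1 between the gates, and Hsph1 at passage 10. Bag6, which shields exposed hydrophobic stretches of new proteins, ran from 179 to 220 CPM in untreated, 220.5 to 289 CPM in Rspo1-negative and 194 to 213 CPM in Rspo1-positive cells, and Hspg2 from 208 to 339 CPM over all libraries. The 6 members not tested were near or at 0: Dnajc5b had no count in any library, Dnajb8 a single count in 1 library, Hspb7 2 counts in 1 library, and Dnajb3, Hspb9 and Dnajc6 at most 4, 6 and 12 counts in a library. These counts set limits on detection at this depth only.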

How the data were processed

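RNA of 9 libraries of sorted organoid cells was sequenced single-end at 75 bp, 100 ng of RNA per library. Per the submitters' processing notes, Trimmomatic 0.35, FastQC 0.11.2, STAR 2.5.1b, featureCounts and DESeq2 were used with GRCm38; strand setting and annotation are not given in the sources used here. The authors deposited raw counts per gene, used for all tests, and FPKM values computed by the authors, used only to compare levels between genes. The authors' own DESeq2 results were not used.

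Counts were tested with edgeR 4.0.16 (R 4.3.3, limma 3.58.1; quasi-likelihood F-test, group and passage as factors, 4 residual degrees of freedom) after TMM scaling and filterByExpr (minimum count 10, total 15), with Benjamini-Hochberg adjustment over 17011 genes and a threshold of 0.05. Alternatives were DESeq2 1.42.0, upper-quartile scaling, no filter, no block, 6 libraries, a per-gene GC and length offset (splines with 5 degrees of freedom each, 17001 genes), and each library left out. For the comparisons of passages, the fit with no block kept passage and left out group instead. The script was tested on simulated data. The member rule used names only, but it and the lists were chosen with earlier results of these data known. Shares of lists set against all genes therefore describe these lists and are no independent support. Members with values in the text are 29 chosen regardless of values, plus up to 6 rises and 6 falls per comparison among calls with a mean log2 CPM above 2, plus those needed to account for every member. Libraries of the same passage deviated together from their group means (r 0.123 to 0.573 over 9 pairs, against -0.476 to 0.0826 over 18 other pairs), so passage, which the labels give, was kept as a block. Motifs were searched in RefSeq promoter windows, and coordinates of genes are those of GENCODE M21 (GRCm38).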

Additional observations from a re-analysis of the deposited data

How the results depend on the processing

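The 65 calls of members were mostly the same with DESeq2 (64), upper-quartile scaling (62) and no filter (62), while 36 passed with no replicate block and 38 with the GC and length offset, which turned the direction of 5 of these estimates and of others that had not passed. Between Rspo1-positive and Rspo1-negative cells the offset gave Dnaja1 -0.10, Dnajb14 -0.21, Hspa4l -0.06 and Dnajc10 -0.11; between Rspo1-negative and untreated cells it gave Bag4 0.16, Hspa13 0.04 and Hspb1 -0.02. The cause was not tested. With no replicate block 3 members passed between Rspo1-positive and untreated cells. At passage 10, where that fit left out group instead of passage, 1 passed. At passage 6, 4 passed with DESeq2, 1 with upper-quartile scaling, 4 with no filter, 2 with the offset and 4 without both Rspo1 libraries of passage 6, an alternative chosen after seeing the data. At passage 10, 17 passed with no filter and 25 without those 2 libraries. Leaving out each library in turn gave 4 to 7 members between Rspo1-positive and untreated cells, 17 to 32 between the gates, 15 to 29 between Rspo1-negative and untreated cells, 0 to 2 at passage 6 and 3 to 24 at passage 10. All p-values rest on 4 residual degrees of freedom and on cultures of a single animal, and the 6 untested members had at most 12 counts in a library.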
